A study of Mus musculus with 12 samples.

Results

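Ccn1, Ccn2, Ccn3, Thbs1, Thbs2 and Ankrd1 are described here across 12 Affymetrix mouse arrays, 1 array per sample. They are 6 of the 18194 genes with a gene symbol of their own in the platform annotation, and 14 of the 45101 probe sets measure them. The genes were selected on earlier readouts of these same arrays, in which Ccn1, Ccn2 and Thbs1 stood high after soluble TNF. Their levels are therefore a description, and their p-values, which come from 1 fit over 10269 genes, are no independent support for the pattern. For each gene the probe set with the highest mean log2(signal + 16) over the 12 arrays was used.

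The cells were cultured endothelial cells from wild-type newborn mice, grown with 10% fetal calf serum and 2 mM glutamine. A control group of 4 samples was mock-transfected. A second group of 4 stably carried a mutant murine TNF that cannot be cleaved from the membrane (tmTNF, constant activation), and the remaining group of 4 received soluble TNF at 20 ng/ml for 4 h. The labels do not say whether the soluble TNF cells had been transfected or whether the tmTNF cells were a single clone. They also do not say whether samples came from separate cultures or animals. Each p-value therefore reflects the spread among these arrays, and the labels do not say how far that spread is technical. Replicate numbers were assigned here in sample order within each group, since the labels give none. They link no arrays across groups.

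CCN proteins and thrombospondins are matricellular proteins, which are secreted into the matrix and signal through integrins and other receptors rather than building fibres. Ccn1 and Ccn2 are immediate early genes and textbook targets of YAP and TAZ, the co-activators held back by the Hippo pathway, which work through TEAD transcription factors. Thbs1 and Thbs2 encode the trimeric thrombospondins that restrain vessel growth through the receptor Cd36. Ankrd1 encodes a nuclear and sarcomeric ankyrin repeat protein and is widely used as a YAP reporter gene.

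Because Ccn1 and Ankrd1 are known TEAD targets, the 250 bases upstream of their annotated starts are shown with those of Thbs2. RefSeq sequences of build GRCm38.p6 were matched for 3 of the 6 genes. All lie on the minus strand and are written 5′ to 3′ along the gene, and capitals mark GGAATG, the TEAD core, on either strand. They are Ccn1 at chr3:145649986-145650235, Ankrd1 at chr19:36119845-36120094 and Thbs2 at chr17:14694263-14694512.
Ccn1: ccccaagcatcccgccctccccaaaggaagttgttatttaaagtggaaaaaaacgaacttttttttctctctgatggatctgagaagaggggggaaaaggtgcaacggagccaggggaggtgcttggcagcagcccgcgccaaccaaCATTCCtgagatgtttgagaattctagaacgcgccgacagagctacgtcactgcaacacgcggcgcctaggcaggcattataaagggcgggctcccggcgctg
Ankrd1: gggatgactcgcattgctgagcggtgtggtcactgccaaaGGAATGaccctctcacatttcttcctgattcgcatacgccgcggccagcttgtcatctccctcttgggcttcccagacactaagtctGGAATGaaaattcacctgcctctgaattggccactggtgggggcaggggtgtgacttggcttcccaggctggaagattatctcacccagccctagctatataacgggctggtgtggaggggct
Thbs2: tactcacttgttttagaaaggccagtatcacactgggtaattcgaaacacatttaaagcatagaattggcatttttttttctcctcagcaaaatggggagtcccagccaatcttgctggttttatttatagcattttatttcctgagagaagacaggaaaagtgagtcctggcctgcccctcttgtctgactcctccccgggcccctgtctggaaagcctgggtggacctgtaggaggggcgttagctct

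The Ccn1 window held 1 TEAD core, on the strand opposite to the gene, beginning 103 bases upstream of the start. The Ankrd1 window held 2, beginning 210 and 123 bases upstream. Of 32851 promoter windows of this length, 12.6% held at least 1. The AP-1 motif TGANTCA (6.75% of windows) and the CArG box bound by SRF (1.47%) were searched on both strands and matched in none of these 3 windows. The kappa B motif bound by NF-kB (3.9%) matched once, in the Thbs2 window, beginning 156 bases upstream. The SMAD letters CAGAC (42.2%) matched 2 times in Ankrd1 and 2 times in Thbs2. In Ankrd1 1 of those matches shared its last base with a TEAD core. A match is a description of letters in the window only.

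Several arrays stood apart from the rest of their group. All 16 endothelial markers examined (among them Pecam1, Cdh5 and Kdr) reached a signal of 100 on at least 1 array, but their mean log2 value ranged widely, from 9.14 to 12.34 in control, 9.89 to 12.48 in tmTNF and 10.39 to 11.70 in soluble TNF samples. The 3 lowest arrays were control replicate 3 (9.14) and tmTNF replicates 2 (9.89) and 4 (9.91). Krt19, a keratin of epithelial and mesothelial cells, reached 1000 on these 3 arrays and on soluble TNF replicates 1 and 4, while Wt1 and Upk3b, defining mesothelial genes, stayed at or under 45.7 and 21.7 on all 12. Across genes, control replicate 4 correlated with soluble TNF replicates 1 and 4 at 0.941 and 0.950, and with the other controls at 0.814 to 0.881. The 3 Y-linked genes Eif2s3y, Kdm5d and Uty had signals of at least 218.8 in all 4 tmTNF samples and at most 39.5 elsewhere, so a difference of tmTNF from either group cannot be told apart from a difference in the origin of the cells. Xist, on the X chromosome, stayed under 100 on all 12 arrays (16.8 to 62.5). The number of probe sets at a signal of 100 or above was 17652 to 19174 per sample.

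Ccn2 had the smallest p-value of the members in both comparisons with soluble TNF. Ccn2 encodes connective tissue growth factor, a secreted adaptor of integrins and TGF-beta. Its signals in controls were 1501.2, 544.2, 3557.1 and 841.5 (replicates 1 to 4). In tmTNF cells they were 617.3, 855.7, 538.0 and 1164.9, and after soluble TNF 6254.3, 11443.2, 5852.4 and 5344.3. Every soluble TNF array lay above every other array, while control and tmTNF arrays overlapped.

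Ccn2 was 8.89-fold lower in tmTNF than in soluble TNF cells (log2 -3.15 ± 0.49, SE, n = 4 per group; limma adjusted p = 0.0126). That comparison equals the difference between the values of the exposures against the shared control. It cannot tell the exposure from the origin of the cells, since only the tmTNF samples had Y-linked signal. Ccn2 was the 1 member of 5 tested that passed the adjusted threshold of 0.05, in a comparison where 1.22% of all genes passed. Against control, the Ccn2 value after soluble TNF was 2.44 ± 0.49 (5.43-fold, adjusted p = 0.156) and in tmTNF cells -0.71 ± 0.49 (95% interval -1.79 to 0.36, adjusted p = 0.844). Both comparisons use the same control arrays.

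Single arrays moved the Ccn2 calls. Without soluble TNF replicate 2, the highest array, the tmTNF minus soluble TNF value was -2.91 and missed the threshold (adjusted p = 0.0557). It also missed without the 5 arrays with Krt19 at 1000 or more (adjusted p = 0.105), an omission chosen after seeing the data. The adjusted p over all its alternatives ran from 0.00193 to 0.105. The call held in 11 of 12 fits that left out 1 array. Against control, soluble TNF passed without control replicate 3 (2.94, adjusted p = 0.0215, range over alternatives 0.0215 to 0.47). Control replicate 3 had the highest Ccn2 of its group and the lowest endothelial marker value of all 12 arrays.

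Ccn1 encodes CYR61, an angiogenic integrin ligand closely related to Ccn2. Its control signals were 1647.3, 347.8, 2763.7 and 808.2. The tmTNF arrays read 767.4, 3260.2, 362.3 and 1919.8, and the soluble TNF arrays 5635.0, 16802.7, 13233.4 and 5711.3. The soluble TNF group lay wholly above both other groups, which covered nearly the same range.

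After soluble TNF the Ccn1 value was 3.09 ± 0.73 (SE) above control, or 8.49-fold, and did not pass over all genes (limma adjusted p = 0.209). In tmTNF cells it was 0.11 ± 0.73 (95% interval -1.49 to 1.71, adjusted p = 0.99), and its sign changed with arrays scaled to the same median (-0.03) or without control replicate 2 (-0.42), control replicate 4 (-0.02), tmTNF replicate 2 (-0.38) or tmTNF replicate 4 (-0.13). Set against soluble TNF, tmTNF was at -2.98 ± 0.73 (adjusted p = 0.0701). With all arrays that difference passed with only the 2 groups fitted (adjusted p = 0.0446) and with array weights (-2.51, adjusted p = 0.0275). Without the 3 arrays lowest in endothelial markers, a choice made after seeing the data, that difference was -4.08 and passed (adjusted p = 0.0259, range over alternatives 0.0259 to 0.185). The mean signals were 1391.8 ± 1061.1 (SD) in control, 1577.4 ± 1301.5 in tmTNF and 10345.6 ± 5588.7 after soluble TNF.

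Within the soluble TNF group the members did not share an order. Ccn1 was highest in replicates 2 and 3, Ccn2 in replicate 2, and Thbs1 and Ankrd1 in replicates 1 and 4. Replicates 1 and 4 also carried the highest Col3a1, a fibrillar collagen of fibroblasts, at 4119.1 and 3758.3 against 1.61 and 13.5 in replicates 2 and 3.

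Thbs1 encodes thrombospondin 1, which inhibits angiogenesis and activates latent TGF-beta. Its control signals were 32.0, 31.4, 123.0 and 883.6. In tmTNF cells they were 185.3, 39.2, 83.1 and 577.5, and after soluble TNF 5183.7, 2605.3, 987.2 and 5608.2. The lowest soluble TNF array lay just above the highest control array, and 4 of the 8 other arrays read under 100.

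The Thbs1 difference between soluble TNF and control was the widest among the 5 genes, at 4.51 ± 0.98 (SE) or 22.8-fold, and did not pass (limma adjusted p = 0.174). Between tmTNF and control it was 0.30 ± 0.98 (95% interval -1.83 to 2.43), with a changed sign when array weights were used (-0.24) or without control replicate 1 (-0.18), control replicate 2 (-0.19) or tmTNF replicate 4 (-0.33). Between tmTNF and soluble TNF it was -4.21 ± 0.98 (adjusted p = 0.06), and -4.43 with arrays scaled to the same median, which passed (adjusted p = 0.038).

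Control replicate 4 was the highest control array for Thbs1. Without that array the soluble TNF difference was 5.44 (adjusted p = 0.0314, range over alternatives 0.0314 to 0.501). The tmTNF minus soluble TNF difference stayed at -4.21 and passed without control replicate 4 (adjusted p = 0.0234) or control replicate 1 (adjusted p = 0.0493). With all arrays it passed with a pseudocount of 64 (-3.77, adjusted p = 0.0459), with only the 2 groups fitted (adjusted p = 0.0288) and with array weights (-4.78, adjusted p = 0.00823), with a range over alternatives of 0.00823 to 0.332.

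Fibroblast markers moved with Thbs1 in part. With group means removed, Thbs1 had a Pearson r of 0.64 with the mean of the 12 fibroblast markers over the 12 arrays, and 0.28 with group means kept. For Ankrd1 these values were higher, at 0.72 and 0.53. The markers did not move as a block. Col3a1 was 4546.6 and 1900.9 on control replicates 3 and 4, where Thbs1 was 123.0 and 883.6. It was 5.97 and 48.6 on control replicates 1 and 2. Among the arrays with Col3a1 under 1000, Thbs1 was 32.0 and 31.4 in controls against 2605.3 and 987.2 after soluble TNF. Without the 4 arrays at 1000 or more the fitted difference did not pass (adjusted p = 0.319), and both controls left lay under 100. Dcn, the proteoglycan decorin, was 3276.5 and 7270.8 on tmTNF replicates 2 and 4, 185.5 on tmTNF replicate 3 and at most 27.7 on the other arrays. Prrx1, a mesenchymal transcription factor, was highest at 2624.8 on tmTNF replicate 4, the tmTNF array with the highest Thbs1. The other tmTNF arrays did not keep that order. On tmTNF replicate 2 Prrx1 was 733.2 and Thbs1 39.2, the lowest of that group. On tmTNF replicate 1 Prrx1 was 30.9 and Thbs1 185.3. Of the 12 fibroblast markers examined, 4 stayed under 100 on all arrays, and their summed signal ran from 520.8 to 13381.7 in control, 828.1 to 13557.6 in tmTNF and 491.0 to 10875.5 in soluble TNF cells. The part of these markers in the Thbs1 result was not tested. In bulk RNA, more cells of a type and more RNA per cell cannot be told apart.

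Thbs2, the close relative of Thbs1, stayed under 100 on all 12 arrays and was not tested. Its brightest probe set read 41.6, 41.0, 46.7 and 8.03 in controls, 20.0, 21.4, 44.3 and 33.8 in tmTNF cells, and 20.6, 11.2, 40.0 and 25.3 after soluble TNF. No fold is given, since all groups lay below that limit.

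**Figure D1:**
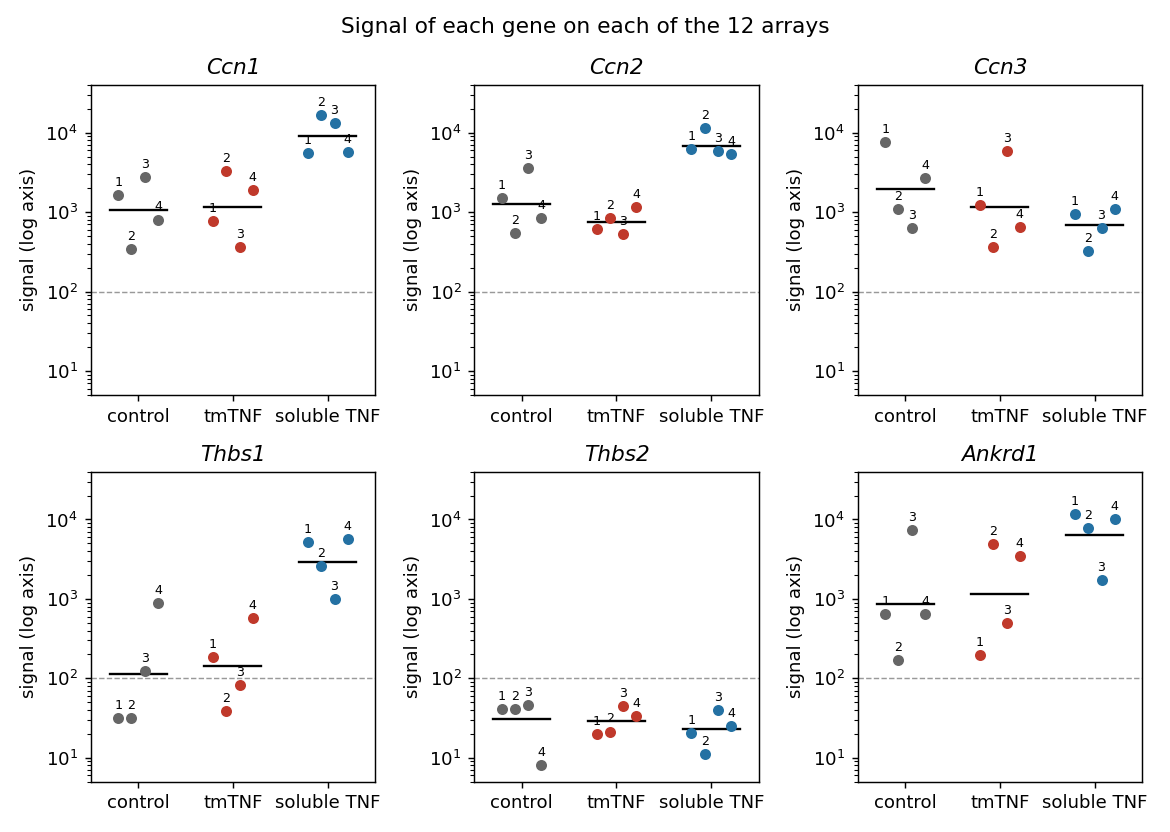
Signal of the 6 genes on a log axis for the control, tmTNF and soluble TNF groups, with 1 numbered point per array (its replicate number), a bar at the mean taken on the log2(signal + 16) scale, and a dashed line at a signal of 100. The soluble TNF points lie above all others for Ccn1, Ccn2 and Thbs1, overlap control replicate 3 and tmTNF replicates 2 and 4 for Ankrd1, and all Thbs2 points lie at 46.7 or below.

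Ankrd1 had the largest SE of the 5 members tested. Its control signals were 648.1, 167.9, 7318.7 and 646.8. The tmTNF arrays read 197.0, 4883.0, 492.7 and 3433.5, and the soluble TNF arrays 11613.3, 7777.6, 1735.0 and 10026.8. The soluble TNF group overlapped both others, because control replicate 3 and tmTNF replicates 2 and 4 exceeded its lowest array.

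After soluble TNF the Ankrd1 value was 2.85 ± 1.19 (SE) above control (limma adjusted p = 0.367), and in tmTNF cells it was 0.41 ± 1.19 (95% interval -2.18 to 2.99). The tmTNF value changed sign without control replicate 2 (-0.35), tmTNF replicate 2 (-0.29) or tmTNF replicate 4 (-0.12). The difference between tmTNF and soluble TNF was -2.44 ± 1.19 (adjusted p = 0.274).

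Ankrd1 ran opposite to the endothelial markers from array to array. With group means removed, Ankrd1 and the mean of the endothelial markers had a Pearson r of -0.93 over the 12 arrays, and -0.78 with group means kept. These points share arrays and the scaling of each array. With group means removed, the same r was -0.67 for Ccn1 and -0.73 for Ccn2. With the mesothelial markers it was 0.89 for Ankrd1 and 0.67 for both Ccn1 and Ccn2. With the fibroblast markers it was 0.72 for Ankrd1, 0.07 for Ccn1 and 0.29 for Ccn2. The part of these markers in the Ccn1, Ccn2 and Ankrd1 results was not tested. On the 3 arrays where Ankrd1 exceeded 1735.0 without soluble TNF, Krt19 was 7119.8, 11494.3 and 5563.7, and Msln, which encodes mesothelin, 3412.0, 2460.4 and 1288.5. On the other 5 arrays without soluble TNF, Krt19 was at most 248.7 and Ankrd1 at most 648.1. Of the 10 mesothelial markers examined, 7 stayed under 100 on all 12 arrays.

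Leaving out the arrays that stood apart changed some of these values. Without the 5 arrays at a Krt19 of 1000 or more, the Ankrd1 value after soluble TNF was 3.09 (adjusted p = 0.413). Without the 3 arrays lowest in endothelial markers it was 3.87 (adjusted p = 0.0893), and tmTNF minus soluble TNF was -4.26 and passed (adjusted p = 0.0452, range over alternatives 0.0452 to 0.581). Under that omission Ccn2 was 2.94 above control after soluble TNF and passed (adjusted p = 0.0233). Ccn1 was 3.54 above control and did not (adjusted p = 0.056). Without the 5 arrays, Ccn2 between the exposures missed the threshold (adjusted p = 0.105).

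**Figure D2:**
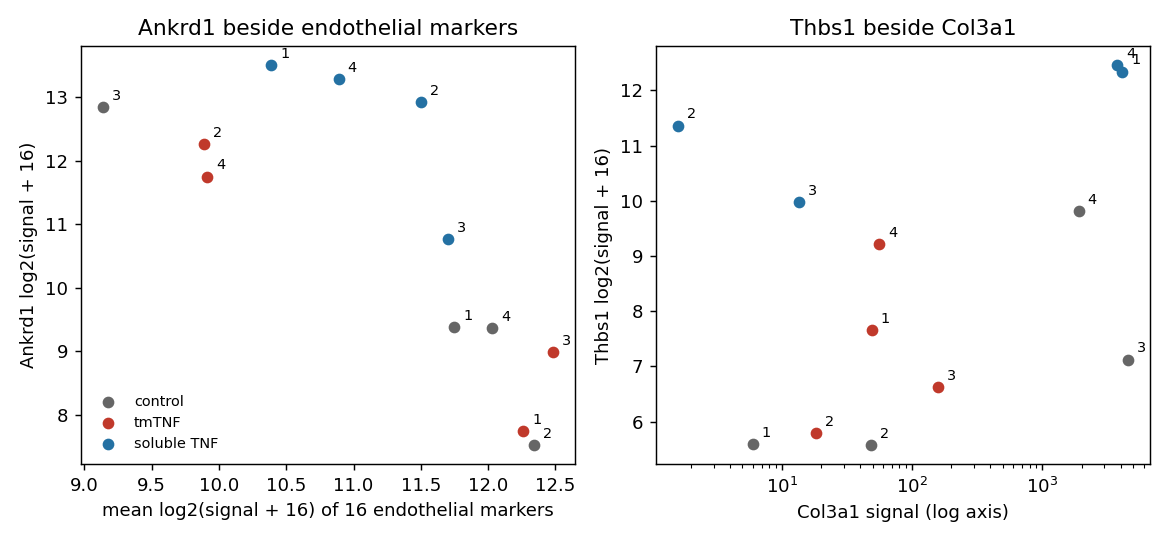
Left, log2(signal + 16) of Ankrd1 against the mean log2(signal + 16) of 16 endothelial markers; right, log2(signal + 16) of Thbs1 against the Col3a1 signal on a log axis, with 1 numbered point per array (its replicate number) coloured by group. Among control and tmTNF arrays Ankrd1 is high where the endothelial markers are low, with control replicate 3 at 9.14 on the horizontal axis. Soluble TNF replicate 2 lies at 11.50 there with Ankrd1 at 12.93. Thbs1 on soluble TNF replicates 2 and 3 lies above every control and tmTNF array, with Col3a1 there at 1.61 and 13.5.

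Ccn3 was the member that did not follow the others. Ccn3 encodes NOV, a CCN protein that tends to oppose the growth effects of Ccn1 and Ccn2. Its control signals were 7707.4, 1108.3, 625.0 and 2721.4, and its tmTNF signals 1246.2, 361.6, 5894.7 and 643.6. After soluble TNF it read 948.0, 327.8, 635.6 and 1083.2. All groups overlapped, and the soluble TNF arrays sat at the low end of the control range.

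The Ccn3 value was -1.50 ± 0.87 (SE) after soluble TNF (95% interval -3.40 to 0.40, limma adjusted p = 0.496) and -0.76 ± 0.87 in tmTNF cells (adjusted p = 0.92). Between tmTNF and soluble TNF it was 0.74 ± 0.87 (adjusted p = 0.669), and -0.04 without tmTNF replicate 3, where Ccn3 was highest in its group. The 2 highest arrays for Ccn3, control replicate 1 and tmTNF replicate 3, also had a high signal for Cd53, a leukocyte tetraspanin, at 9041.4 and 5157.0. Cd53 was picked for its likeness to Ccn3, so that match was fixed in advance. Cd68, a lysosomal protein abundant in macrophages, read 18210.0 and 4295.2 on those 2 arrays and 6727.6 on tmTNF replicate 1. Cd14, another of the leukocyte markers, went the other way. It read 264.8 and 376.6 on those 2 arrays. On tmTNF replicates 2 and 4, where Ccn3 was 361.6 and 643.6, Cd14 read 5128.6 and 4762.5. Lyz2, a myeloid lysozyme, read 42.8 on control replicate 1 and 1356.5 on tmTNF replicate 3. Of the 9 leukocyte markers on the array, 5 stayed under 100 on all 12 arrays, among them Ptprc and Adgre1. With group means removed, Ccn3 had a Pearson r of 0.62 with the mean of the 9. That r was not particular to leukocyte markers. It was 0.63 with the smooth muscle and pericyte markers, 0.59 with the endothelial and -0.60 with the mesothelial markers. With the fibroblast and the platelet markers it was -0.07 and 0.10. The part of these markers in the Ccn3 values was not tested.

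By group mean, soluble TNF ranked first for Ccn1, Ccn2, Thbs1 and Ankrd1 and last for Ccn3. The control and tmTNF means did not differ beyond their spread for any of the 5 genes. For Ccn3 the tmTNF mean log2 of 10.19 lay between 10.95 in control and 9.45 after soluble TNF. Against control, 0 of 5 members passed for tmTNF by limma (0 at an unadjusted p under 0.05), where 0.195% of all genes passed and 7.56% had an unadjusted p under 0.05. For soluble TNF 0 of 5 passed (4 at an unadjusted p under 0.05), where 0.0390% of all genes passed and 12.7% had an unadjusted p under 0.05. Between the exposures 3 of 5 had an unadjusted p under 0.05, against 19.9% of all genes. The soluble TNF arrays lay wholly above control for 3 of 5 members, against 3.67% of all genes, and the tmTNF arrays lay wholly below soluble TNF for the same 3, against 5.86%. For tmTNF and control 0 of 5 members had separate groups, against 3.17% of all genes. The members were chosen with the soluble TNF values known, so nothing is read from these shares.

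**Figure D3:**
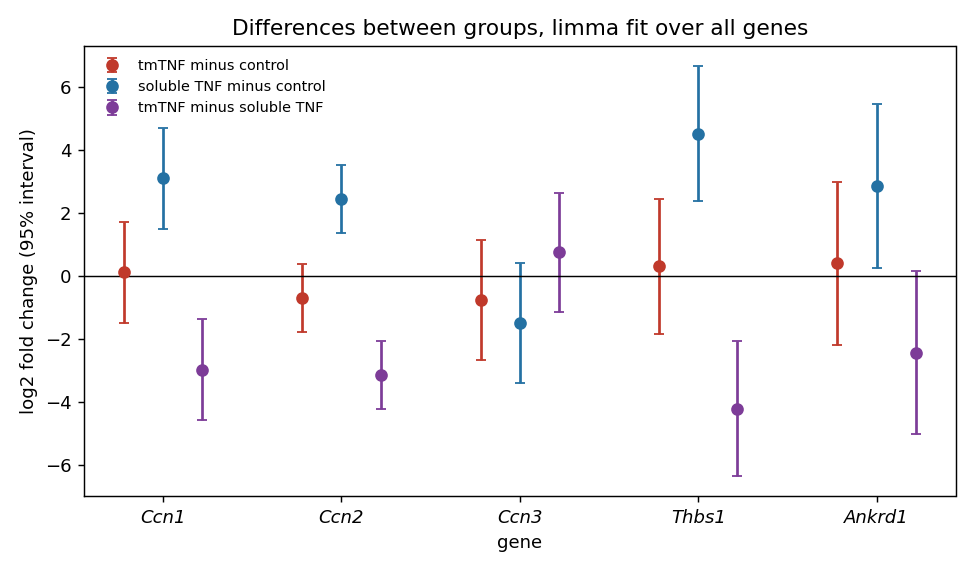
Log2 fold change with its 95% interval for the 5 tested genes in each of the 3 comparisons, from the limma fit over all genes. The intervals for Ccn1, Ccn2 and Thbs1 lie above 0 for soluble TNF minus control and below 0 for tmTNF minus soluble TNF, and all tmTNF minus control intervals cross 0.

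Probe sets of one gene gave similar answers where they were bright. Ccn1 has 4 probe sets with soluble TNF minus control values of 3.09, 3.09, 2.33 and 2.56, the last from a probe set whose groups overlapped. The used Ccn1 and Ccn3 probe sets carry the suffix x_at, which marks probes that can match other transcripts. The brightest Ccn1 probe set without that suffix gave 3.09 ± 0.68 (SE). The second Thbs1 probe set gave 3.71 ± 0.74 and the second Ankrd1 probe set 2.86 ± 1.23. Mean log2 values of the used and the next probe set were 11.15 and 10.54 for Ccn1, 10.19 and 9.79 for Ccn3, 8.62 and 8.48 for Thbs1, 5.44 and 4.78 for Thbs2, and 10.86 and 10.44 for Ankrd1. Ccn2 had 1 probe set.

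**Figure D4:**
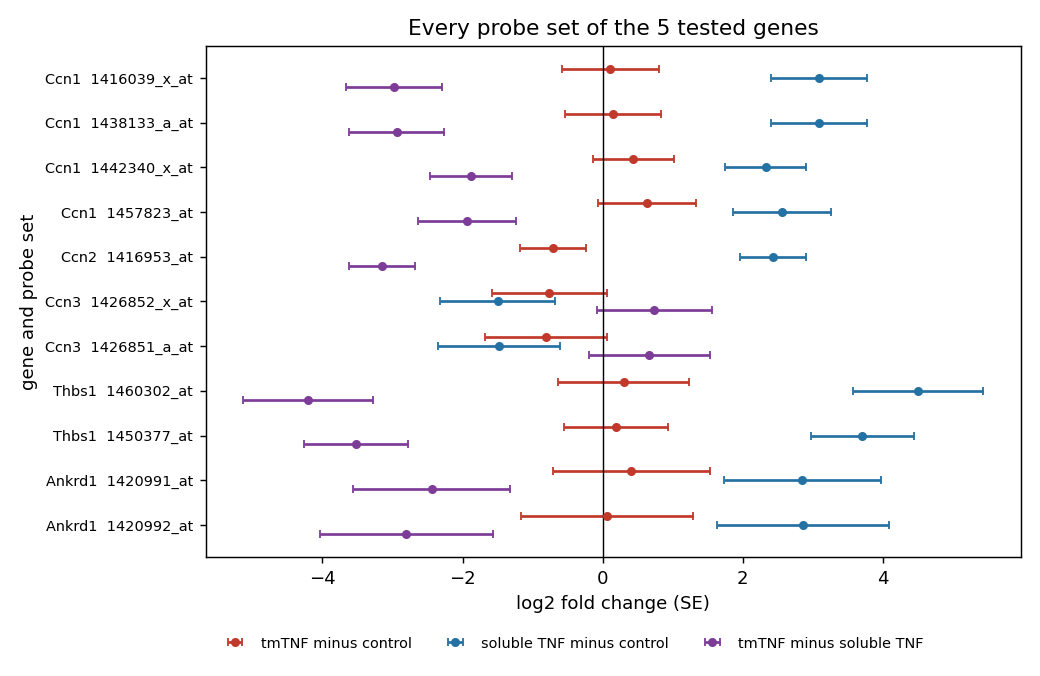
Log2 fold change with its SE for each of the 11 probe sets of the 5 tested genes in the 3 comparisons, from a limma fit over all 45037 probe sets that are not array controls. The soluble TNF minus control values are positive for every Ccn1, Ccn2, Thbs1 and Ankrd1 probe set, from 2.33 to 4.51, and negative for both Ccn3 probe sets.

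Members moved together to different degrees across the 12 arrays. Ccn1 and Ccn2 had a Pearson r of 0.92, and 0.82 with group means removed. Ccn2 and Ankrd1 had 0.77 and 0.75, and Ccn1 and Ankrd1 0.79 and 0.65. Thbs1 had 0.64 with Ccn1 and 0.73 with Ccn2, but -0.10 and 0.07 with group means removed. Ccn3 had -0.62 with Ccn1 and -0.57 with Ankrd1.

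Genes outside the 6 whose log2 values were most like each member over the 12 arrays were ranked by Pearson r. For Ccn1 these were Nrg1 (0.916), Edn1 (0.907) and Abce1 (0.894), and for Ccn2 Snrpc (0.904), Nrg1 (0.903) and Ehd1 (0.891). Nrg1 encodes neuregulin 1, a ligand of ErbB receptors, and was among the top 3 for both. For Thbs1 they were Psma6 (0.983), Rbmx (0.957) and Ap1s1 (0.946), for Ankrd1 the desmosomal plakophilin Pkp2 (0.934), Gnl3 (0.928) and Zpr1 (0.921), and for Ccn3 2810410L24Rik (0.925), Arhgap6 (0.917) and Cd53 (0.896).

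The other CCN and thrombospondin genes were mostly dim. Ccn4, the Wnt-induced relative, reached 100 on all 12 arrays (206.1 to 1285.8) and had values of 0.30 ± 0.51 (SE) for tmTNF and -0.16 ± 0.51 for soluble TNF against control. Ccn5 reached 100 on 2 arrays, Thbs3 on 3, and Ccn6, Thbs4 and Comp on 0. The highest Thbs3 signals, 252.8 and 200.2, were on soluble TNF replicates 4 and 1, which were also the highest for Thbs1.

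Other genes reported as YAP and TAZ targets stood mostly above control after soluble TNF. Of 18 tested, 1 rose by limma, Edn1, which encodes the vasoconstrictor endothelin 1, and 0 fell, where 0.0390% of all genes passed. At an unadjusted p under 0.05 there were 5, all higher, against 12.7% of all genes in either direction. In all, 17 of 18 had a positive value, with a median log2 of 0.87 beside -0.05 for all genes. Edn1 read 1170.0, 2617.6, 4204.5 and 618.0 after soluble TNF and at most 49.1 in controls, at least 14.7-fold higher (adjusted p = 0.0202). The Edn1 call was also made between the exposures, with tmTNF at -3.90 ± 0.76 (SE, limma adjusted p = 0.0349).

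The Edn1 calls depended on which arrays were used. Against control, soluble TNF passed in 7 of 12 fits that left out 1 array and missed without control replicates 1 or 2 or soluble TNF replicates 1, 2 or 3. All 4 controls lay under 100, so no fitted fold is given for it. The adjusted p ranged from 0.00785 to 0.153 over all alternatives. Between the exposures Edn1 passed in 6 of 12 such fits, with values of -4.38 to -3.34, and missed without any 1 of the first 3 replicates of tmTNF or of soluble TNF (adjusted p from 0.0172 to 0.12 over all alternatives).

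Crim1, a transmembrane protein that binds BMPs, and Tgfb2 also had separate groups after soluble TNF. With Edn1 that made 3 of 18, all higher, against 3.67% of all genes. Crim1 read 1057.1, 697.6, 583.8 and 675.6 in controls and 1807.4, 2680.0, 3346.2 and 1853.3 after soluble TNF (1.65 ± 0.34 SE, limma adjusted p = 0.156). Tgfb2 was at least 2.42-fold higher (adjusted p = 0.219). In tmTNF cells 0 of 18 passed, where 0.195% of all genes did, with a median of 0.30 beside 0.03 for all genes. At an unadjusted p under 0.05 there were 2, against 7.56% of all genes. Between the exposures Edn1 was the 1 gene of the 18 called, where 1.22% of all genes passed. The median there was -0.35 beside 0.08 for all genes.

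Genes of the Hippo pathway itself gave 1 call, between the exposures. Amotl2, Lats2, Ptpn14 and Ajuba stand both in this list and in that of YAP and TAZ targets. Ajuba is counted in both at an unadjusted p under 0.05 after soluble TNF. Of 24 tested, 0 passed by limma against control for tmTNF, where 0.195% of all genes passed. For soluble TNF 0 passed, where 0.0390% of all genes did. At an unadjusted p under 0.05 there were 0 for tmTNF and 4 for soluble TNF (3 of them higher). The shares of all genes at that level were 7.56% and 12.7%. Between the exposures, where 1.22% of all genes passed, 1 fell in tmTNF. It was Wwc2, a scaffold that activates the LATS kinases (-1.05 ± 0.21 SE, adjusted p = 0.0379). Wwc2 read 629.7, 579.9, 560.9 and 649.0 in tmTNF cells, 1292.2, 1220.7, 1345.3 and 1215.0 after soluble TNF, and 517.6 to 1026.8 in controls. The Wwc2 call held in 5 of 12 fits that left out 1 array, with values of -1.08 to -1.02, and was lost without tmTNF replicates 2, 3 or 4 or any 1 soluble TNF array (adjusted p from 0.00584 to 0.223 over all alternatives). Limd1, a LIM protein that binds LATS kinases, had separate groups in the other direction (0.68 ± 0.21, adjusted p = 0.121).

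SRF and its MRTF co-activators share many cytoskeletal targets with YAP. The list of 16 genes tested held such targets, Srf, Mrtfa and Mrtfb themselves, and the transcription factors Egr1, Fos and Junb. Of these 16, 0 passed by limma after soluble TNF, with a median of 0.69 beside -0.05 for all genes. At an unadjusted p under 0.05 there were 8, all higher, against 12.7% of all genes in either direction. Groups were separate for 4, all higher, against 3.67% of all genes: Tpm1, a tropomyosin (1.39 ± 0.36 SE), Junb (1.27 ± 0.40), Cnn2, a calponin (1.09 ± 0.37), and Vcl, the focal adhesion protein vinculin (0.89 ± 0.27). Vcl read 9511.5, 9952.1, 10925.1 and 8474.0 after soluble TNF and 4705.2, 4812.5, 4731.7 and 6904.6 in controls.

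Between the exposures 0 of the 16 genes of the SRF and MRTF list passed by limma. At an unadjusted p under 0.05 there were 8, 7 of them lower in tmTNF, against 19.9% of all genes in either direction. In 7 genes tmTNF lay wholly below soluble TNF, against 5.86% of all genes. Acta2, smooth muscle actin, was at -2.81 ± 0.63 (SE, adjusted p = 0.0543) and Fhl2 at -2.72 ± 0.74 (adjusted p = 0.0888). For tmTNF against control 0 of 16 passed, where 0.195% of all genes passed. At an unadjusted p under 0.05 there were 4, 3 of them higher, against 7.56% of all genes in either direction. The median was -0.19. Of the 10 smooth muscle and pericyte markers, 5 stayed under 100 on all arrays, Myh11 and Cnn1 among them.

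Receptors and binding partners of the members gave 0 of 18 by limma in each comparison. Of all genes 0.195% passed for tmTNF, 0.0390% for soluble TNF and 1.22% between the exposures. At an unadjusted p under 0.05 there were 0 for tmTNF, 2 for soluble TNF and 1 between the exposures. The shares of all genes at that level were 7.56%, 12.7% and 19.9%. Itgb2, an integrin chain of leukocytes, was at least 1.62-fold lower after soluble TNF and did not pass (adjusted p = 0.347). Cd36 and Cd47, the thrombospondin receptors, had values of -0.97 ± 1.44 (SE) and -0.27 ± 0.27 after soluble TNF. Both were chosen for their role after their values were seen.

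Of 8 other matricellular genes tested, 1 fell in tmTNF relative to soluble TNF by limma, where 1.22% of all genes passed. That gene was Fbln2, which encodes fibulin 2. Fbln2 read 981.4, 130.5, 555.1 and 114.3 in tmTNF cells, 3730.7, 4986.8, 3166.7 and 4409.8 after soluble TNF, and 1200.1, 4296.4, 5770.9 and 2187.9 in controls. The values were -3.64 ± 0.65 (SE) against soluble TNF (adjusted p = 0.0232) and -3.15 ± 0.65 against control (adjusted p = 0.0842). The call held in 6 of 12 fits that left out 1 array, with values of -4.18 to -3.21, and was lost without tmTNF replicates 2 or 4 or any 1 soluble TNF array (adjusted p from 0.00203 to 0.207 over all alternatives). Without the 5 arrays with Krt19 at 1000 or more, Fbln2 was at -2.40 (adjusted p = 0.207). Against control 0 of 8 passed for either exposure, where 0.195% of all genes passed for tmTNF and 0.0390% for soluble TNF. At an unadjusted p under 0.05 there were 1 for tmTNF and 2 for soluble TNF, against 7.56% and 12.7% of all genes.

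Genes of thrombospondin 1 turnover and TGF-beta activation gave 0 of 13 by limma in each comparison. Of all genes 0.195% passed for tmTNF, 0.0390% for soluble TNF and 1.22% between the exposures. At an unadjusted p under 0.05 there were 4 for tmTNF, 2 for soluble TNF and 2 between the exposures. The shares of all genes at that level were 7.56%, 12.7% and 19.9%. Ltbp4, which anchors latent TGF-beta, was at -2.55 ± 0.70 (SE) in tmTNF against control. After soluble TNF, Smad3 was at 0.85 ± 0.30 and Adamts1, a protease that cleaves thrombospondins, at -1.16 ± 0.55. Tgfbr1 was 1.39 ± 0.37 higher in tmTNF than after soluble TNF (adjusted p = 0.0834).

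Negative regulators of vessel growth, a list that includes Thbs1, gave 0 of 9 by limma in each comparison. Of all genes 0.195% passed for tmTNF, 0.0390% for soluble TNF and 1.22% between the exposures. At an unadjusted p under 0.05 there were 0 for tmTNF, 1 for soluble TNF (Thbs1) and 2 between the exposures. The shares of all genes at that level were 7.56%, 12.7% and 19.9%. Between the exposures the gene at that level besides Thbs1 was Serpinf1, which encodes the angiogenesis inhibitor PEDF. It was at -2.40 ± 0.81 (SE) in tmTNF against soluble TNF (limma adjusted p = 0.144). The medians were -0.07, -0.06 and 0.28 in the 3 comparisons, beside 0.03, -0.05 and 0.08 for all genes.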

How the data were processed

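The authors deposited linear signal intensities for each probe set. The tool named is MAS5, per the submitters' processing notes, and its version and settings are not given in the sources used here. About 5 micrograms of total RNA per array were used, per the labels. Here the 64 array control probe sets were left out, each array was set to a 2% trimmed mean of 500, and log2(signal + 16) was taken, so folds of dim genes are understated. Probe sets with 1 gene symbol and a signal of 100 or more on at least 4 arrays were kept, and the one with the highest mean stood for its gene, which left 10269 genes. Detection calls were not used, so 100 stands in for a background limit, and a fold against a group wholly under it is given as "at least", with 100 in place of that group's values.

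One model of the 3 groups was fitted with limma 3.58.1 (R 4.3.3; lmFit, eBayes with trend, two-sided, Benjamini-Hochberg over all genes, threshold 0.05) and tested on simulated data. The 4 arrays per group limit the precision. The members and the 8 gene lists were chosen with earlier results of these data known. Genes to name were, from each list, those past the threshold and up to 4 with the largest differences among those whose groups did not overlap, and for each member the 3 genes most like it by Pearson r. Alternatives covered scaling, pseudocount, filter, probe sets, model settings and arrays left out.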

Additional observations from a re-analysis of the deposited data

Results flagged for a closer look

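Ccn2 differed between tmTNF and soluble TNF cells by a log2 value of -3.15 (tmTNF minus soluble TNF, limma adjusted p = 0.0126). The same difference was -3.90 for Edn1 (adjusted p = 0.0349), -3.64 for Fbln2 (adjusted p = 0.0232) and -1.05 for Wwc2 (adjusted p = 0.0379). These differences cannot be told apart from a difference in the origin of the cells. The genes were chosen with earlier results of these data known.

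The Thbs2 signal of 8.03 on control replicate 4 lay far below the 41.0 to 46.7 of the other controls. Such a gap was looked for among the 6 members, and it arises by chance in about 1 in 20 groups. All Thbs2 signals lay under 100.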

How the results depend on the processing

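Of 423 member fold changes under 33 alternative settings, 391 kept their direction and their side of the threshold, 13 came to pass it, 2 no longer passed it and 17 turned sign, all of them differences of tmTNF from control except Ccn3 between the exposures. With 1 array left out at a time, tmTNF minus control ranged from -0.42 to 0.65 for Ccn1, -0.33 to 1.23 for Thbs1 and -0.35 to 1.43 for Ankrd1, and Ccn3 from -0.04 to 1.29 for tmTNF minus soluble TNF. The sign turned for Ccn1 (-0.03) with arrays scaled to the same median and for Thbs1 (-0.24) with array weights. It turned for Ccn1 (-0.54) and Ankrd1 (-0.39) both without the 3 arrays lowest in endothelial markers and without the 5 arrays with Krt19 at 1000 or more. The cause was not tested.

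Genes called for tmTNF against control numbered 20, and 16 to 66 with 1 array left out. There were 4 without the 3 arrays, 0 without the 5, and 8 without the 4 arrays with Col3a1 at 1000 or more. For soluble TNF against control 4 were called, and 0 to 22 with 1 array left out. There were 2 when only the 2 groups were fitted, 17 without the 3 arrays, 1 without the 5 and 0 without the 4. Between the exposures 125 were called, and 28 to 233 with 1 array left out. There were 439 with only the 2 groups, 1176 with array weights, 1 without the 5 arrays and 43 without the 4. Scaling to the same median gave 239, 67 higher and 172 lower in tmTNF against 98 and 27, with an all-gene median of -0.15 in place of 0.08.

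Members called with 1 array left out numbered 0 for tmTNF against control, 0 to 1 for soluble TNF against control and 0 to 2 between the exposures. Between the exposures 2 were called with the same median or a pseudocount of 64, 3 with only the 2 groups, array weights or without the 3 arrays, and 0 without the 5. Against control 1 was called for soluble TNF without the 3 arrays. These omissions of 3, 5 and 4 arrays were chosen after seeing the data. No paired analysis was possible because the labels give no replicate numbers. Signals under 100 limit what can be said of Thbs2 and of Thbs1 outside soluble TNF.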
